A study of Mus musculus with 6 samples.

Results

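Cathepsins are the proteases of endosomes and lysosomes, and 8 of them (Ctsb, Ctsc, Ctsd, Ctse, Ctsh, Ctsl, Ctss and Ctsz) were followed in splenic B cells of mice with and without a working Btk. They were found by gene symbol in the annotation of the array, which gives them 15 of 12422 probe sets and 8 of 8251 named genes. The annotation gives Ctse 3 probe sets, which disagreed in Xid and are described apart. The genes were chosen by symbol, and Ctse was singled out on its intensities in Xid against CBA, so all values of Xid against CBA are given here as a description, with no test. Ctsb has 4 probe sets, Ctsc has 3, and the other 5 genes have 1 each. After dim probe sets were left out, 12 of the 15 remained, with at least 1 for each gene.

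RNA of whole splenic B cells from adult mice was hybridised to 6 Affymetrix MG_U74Av2 arrays, and each group had 2. Wild type CBA mice were compared with Xid mice of the CBA/N strain with the Btk mutation R28C and with Btk KO mice. Btk KO/CBA mice came from Btk KO/SW129 mice that were crossed back to CBA for 9 generations. Btk, a Tec family kinase, carries signals of the B cell receptor, and the study asked how its mutation or loss changes the transcripts of these cells. Each mutation comes with a strain or line of its own, so the effect of Btk and that of other differences between the lines cannot be told apart. The first 3 arrays, 1 per group, form run 1, and the 3 with RNA from new mice form run 2. Whether an RNA came from 1 mouse or a pool is not stated.

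In B cells and macrophages the cathepsins cut proteins taken up from outside. They also remove the invariant chain from MHC class II molecules before a peptide is loaded, a step for which Ctss is the main enzyme in B cells. Ctsd and Ctse are aspartic proteases; Ctsb, Ctsc, Ctsh, Ctsl, Ctss and Ctsz are cysteine proteases of the papain family. Ctsd and Ctsb are abundant in the lysosomes of macrophages, whereas Ctse sits mainly in endosomes and is found in few cell types.

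In run 1 the Btk KO array differed in RNA quality, with a 3' to 5' ratio of 10.4 for the Gapdh controls against at most 1.61 on the other 5 arrays, a sign of degraded RNA. It was also the only array of its hybridisation day. For Btk the intensities were 276.1 and 173.6 in Btk KO, 874.1 and 749.8 in CBA, and 841.0 and 643.9 in Xid (scaled units, run 1 then run 2). The B cell marker Ms4a1 was bright on all arrays, at 3503.8 to 5588.5 on its brighter probe set, and Cd3e of T cells was dim, at 9.7 to 62.6. Cd79a, another B cell marker, measured 5287.4 and 6004.4 in CBA, 5533.1 and 4438.1 in Xid, and 3066.3 and 3982.2 in Btk KO. S100a8 of neutrophils had means of 57.7 ± 9.62, 57.7 ± 10.9 and 448 ± 256 in CBA, Xid and Btk KO (SD, n = 2). The groups thus differed in some of these checks.

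Ctse, cathepsin E, gave a low signal in Xid on 104696_at. This probe set measured 781.8 and 896.7 in CBA, 31.5 and 91.8 in Xid, and 701.5 and 703.7 in Btk KO (run 1 then run 2). Both Xid arrays lay far below the 4 others, whose lowest value was 7.64 times the highest of Xid, while CBA and Btk KO together spanned 701.5 to 896.7. The mean in Xid, 61.6 ± 42.6 (SD, n = 2), was 7.35% of the CBA mean, 839 ± 81.2. Both Xid values lie above 19.8, the mean intensity below which probe sets were left out as dim. The log2 difference of Xid from CBA was -4.39 in run 1 and -3.21 in run 2, and lay between -4.49 and -3.11 under all alternatives of the processing. Among 7453 probe sets it had rank 2 from the most negative. This rank is a description only, since Ctse was singled out on its values in this contrast.

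The other probe sets annotated to Ctse, 93861_f_at and 93860_i_at, did not show this pattern. The first measured 266.2 and 396.4 in CBA, 214.6 and 455.4 in Xid, and 267.1 and 729.7 in Btk KO. Its groups overlapped, and the array of run 2 was the higher one in each group. The second measured 222.4 and 254.7 in CBA, 173.1 and 216.8 in Xid, and 179.3 and 275.9 in Btk KO, again with run 2 higher in each group. Its Xid arrays lay below both CBA arrays by a small margin, at 81.7% of the CBA mean. The array annotation ties these 2 probe sets to 1 shared sequence record and 104696_at to a different one. By the manufacturer's naming, the suffix _f marks probes that match a family of related sequences, and the suffix _i marks a set with fewer unique probes than the design asks for. Probe sequences were not used here, so whether the record behind this pair is a Ctse transcript was not tested, and 104696_at may be the only one of the 3 that reads Ctse. The pair is therefore not set against 104696_at as a second reading of the same gene.

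**Figure D1:**
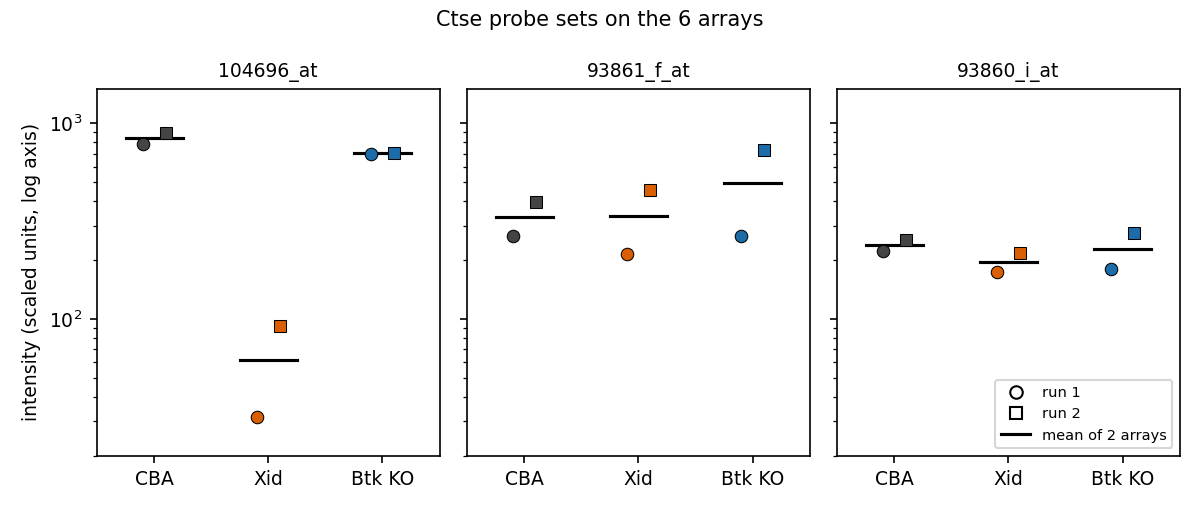
Intensity (scaled units, log axis) of the 3 probe sets annotated to Ctse on each array, with run 1 as circles, run 2 as squares and bars for the mean of 2 arrays. Only 104696_at may read Ctse. On 104696_at the Xid arrays, at 31.5 and 91.8, lie below the other 4; the groups of 93861_f_at overlap, and on 93860_i_at the Xid arrays, at 173.1 and 216.8, lie just below CBA, at 222.4 and 254.7.

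In Btk KO against CBA, the contrast that the choice of Ctse did not use, no probe set annotated to Ctse passed the test. For 104696_at the log2 difference from CBA was -0.25 ± 0.40 (SE; limma adjusted p = 0.92), although both Btk KO arrays lay below both CBA arrays. For 93861_f_at it was 0.44 ± 0.52 (limma adjusted p = 0.89) and for 93860_i_at -0.09 ± 0.26 (limma adjusted p = 0.95). On 104696_at Btk KO exceeded Xid by 4.24 in run 1 and 2.86 in run 2 (log2 difference, description), and its mean was 11.4 times that of Xid.

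Of the 8 cathepsins followed, Ctsd and Ctsb had the largest log2 differences from CBA in Btk KO, and both also had higher levels in Xid. Ctsd, the major aspartic protease of lysosomes, measured 338.8 and 539.8 in CBA, 751.4 and 1036.5 in Xid, and 1179.6 and 1544.1 in Btk KO. The 3 groups did not overlap, and Xid lay between the other two. The mean in Btk KO, 1362 ± 258 (SD, n = 2), was 310% of that in CBA, 439 ± 142. The log2 difference was 1.64 ± 0.29, with 1.78 in run 1 and 1.51 in run 2. It did not pass without the run in the model (limma adjusted p = 0.11) and rose with the run as a block (limma adjusted p = 0.0063). With the block the call held with each of the 6 arrays left out in turn, at a limma adjusted p between 0.0027 and 0.047, and at 0.016 without the Btk KO array of run 1.

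Ctsb, a cysteine protease of lysosomes, was read by 3 probe sets above the filter. The brightest, 94831_at, measured 760.1 and 1088.7 in CBA, 1099.1 and 1779.0 in Xid, and 2005.5 and 2245.1 in Btk KO. The next, 95608_at, measured 61.7 and 35.0, 75.9 and 105.4, and 147.2 and 164.5 in the same order, and 92256_at measured 31.2 and 38.1, 56.8 and 59.3, and 61.9 and 82.4. On each of these probe sets the groups stood in the order CBA, Xid, Btk KO without overlap. The log2 differences of Btk KO from CBA were 1.22 ± 0.29, 1.62 ± 0.31 and 0.94 ± 0.27 (SE; limma adjusted p = 0.22, 0.12 and 0.31). With the run as a block the first and the second rose (limma adjusted p = 0.019 and 0.040) and the third did not pass (0.11).

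The Ctsb calls were lost with most arrays left out, while with the block the log2 differences stayed between 1.0 and 1.44 on 94831_at and between 1.11 and 2.13 on 95608_at. With the block, 94831_at passed with 1 of the 6 arrays left out, Btk KO of run 2 (limma adjusted p = 0.011), where the array with the Gapdh ratio of 10.4 is the only one of its group. Without CBA of run 1 or 2, Xid of run 1 or 2, or Btk KO of run 1 it had a limma adjusted p of 0.10, 0.071, 0.058, 0.054 and 0.11. For 95608_at the call held without CBA of run 1 (limma adjusted p = 0.047). Without CBA of run 2, Xid of run 1, Xid of run 2, Btk KO of run 1 and Btk KO of run 2 it had a limma adjusted p of 0.14, 0.079, 0.078, 0.092 and 0.070. The sign stayed positive on all 3 probe sets under every alternative, with 0.71 as the smallest log2 difference.

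In Xid against CBA, Ctsd differed by 1.14 and 0.93 on the log2 scale in runs 1 and 2. For Ctsb the differences were 0.53 and 0.71 on 94831_at, 0.27 and 1.44 on 95608_at and 0.76 and 0.57 on 92256_at. The Xid means of these probe sets were 156%, 187% and 168% of CBA, against 203% for Ctsd.

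**Figure D2:**
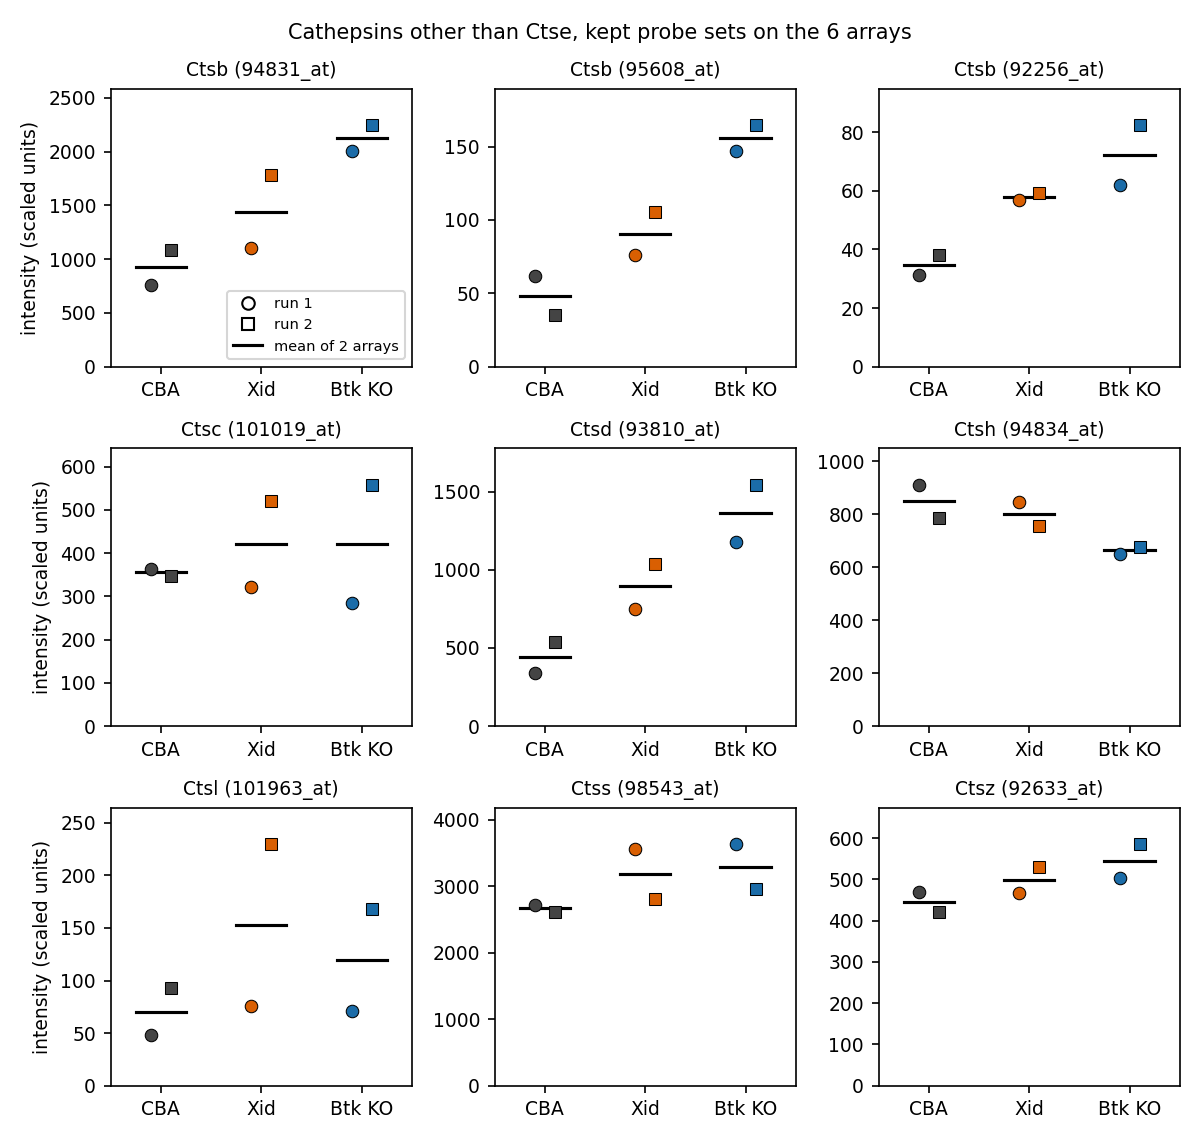
Intensity (scaled units, axes from 0) of the 9 kept probe sets of cathepsins other than Ctse on each array; circles are run 1, squares run 2 and bars the mean of 2 arrays. Ctsd and the 3 Ctsb probe sets step up from CBA over Xid to Btk KO without overlap, Ctsh is lowest in Btk KO, and Ctsc and Ctsl overlap between groups.

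None of the remaining cathepsins passed the test in Btk KO. Ctss, which trims the invariant chain, had the highest intensities of the 8 genes, at 2719.9 and 2618.0 in CBA, 3551.8 and 2804.4 in Xid, and 3629.9 and 2955.3 in Btk KO. Both mutant groups lay above CBA and overlapped each other, and the log2 difference of Btk KO from CBA was 0.30 ± 0.24 (limma adjusted p = 0.81). Intensities of different probe sets depend on their probes, so they give no order of transcript levels between genes. Ctsh, an aminopeptidase, measured 911.8 and 787.8 in CBA, 845.7 and 756.0 in Xid, and 650.3 and 677.6 in Btk KO. It was the single cathepsin of the 8 with both Btk KO arrays below all others, at 78.1% of the CBA mean, a difference of -0.35 ± 0.19 (limma adjusted p = 0.69). Its sign stayed negative under every alternative, between -0.47 and -0.23.

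Ctsz, a carboxypeptidase, measured 468.2 and 421.6 in CBA, 467.6 and 529.5 in Xid, and 503.9 and 585.1 in Btk KO. Only Btk KO lay above CBA without overlap, by 0.29 ± 0.19 (limma adjusted p = 0.76). Ctsc, which activates serine proteases of cytotoxic cells and neutrophils, measured 363.7 and 347.2 in CBA, 320.9 and 520.3 in Xid, and 285.9 and 558.3 in Btk KO. CBA varied little, whereas both mutant groups were below CBA in run 1 and above it in run 2, so the difference of 0.17 ± 0.35 (limma adjusted p = 0.94) averages opposite signs. Ctsl, an endopeptidase, measured 48.0 and 93.1 in CBA, 75.8 and 229.7 in Xid, and 71.5 and 168.2 in Btk KO. Run 2 was higher in each group and the groups overlapped, but within each run both mutants lay above CBA. The Ctsl differences were 0.60 and 1.25 for Xid and 0.52 and 0.81 for Btk KO (log2, run 1 then run 2), with 0.67 ± 0.58 for Btk KO over both runs (limma adjusted p = 0.84; 0.21 with the run as a block).

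The 3 probe sets left out as dim read at most 20.9 on any array. They were 162271_f_at for Ctsb, at 2.1 to 17.6, and 101020_at and 161251_f_at for Ctsc, at 2.5 to 19.6 and 2.8 to 20.9. The dimmest probe set that was kept, 92256_at for Ctsb, had a mean log2 value of 5.87, and the brightest that was left out, 101020_at, 3.95, against a filter value of 4.69.

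Over the 12 kept probe sets, limma called 0 in Btk KO against CBA without the run block, with 4 at an unadjusted p under 0.05. Over all 7453 probe sets it called 0.174%. With the block it called 3 of 12, all higher, against 1.42% of all probe sets called higher and 0.805% called lower. These 3 are Ctsd and Ctsb 94831_at and 95608_at, so they stand for fewer genes than probe sets. Both Btk KO arrays lay above both CBA arrays on 6 of the 12 and below on 2, against 20% and 16.0% of all probe sets. Those 6 include the 3 kept Ctsb probe sets, which read the same gene but are counted singly here, as in the medians. The median log2 difference of the 12 was 0.37, and 0.67 over the 9 other than those of Ctse, beside 0.01 over all. In Xid against CBA, 5 of those 9 lay above and 0 below, where 17.0% and 14.4% of all probe sets did. The members were chosen with earlier results of these data known, which bears on all of these counts. Ctse was singled out on Xid against CBA, so nothing is read from the counts of that contrast. The comparisons with CBA share the CBA arrays, so they are not independent of each other.

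**Figure D3:**
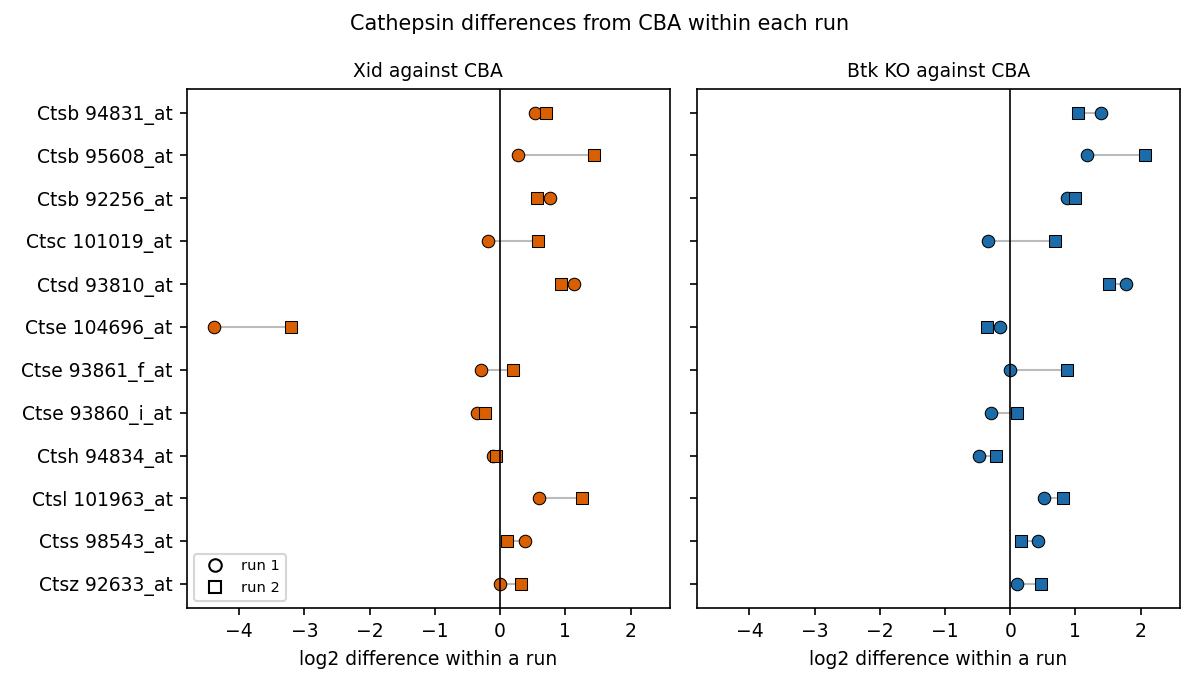
Log2 difference from CBA within run 1 (circles) and run 2 (squares) for the 12 kept cathepsin probe sets, with Xid on the left and Btk KO on the right. Ctse 104696_at lies at -4.39 and -3.21 in Xid and near 0 in Btk KO, and Ctsd and the Ctsb probe sets lie to the right of 0 in both lines and runs.

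Btk KO against Xid was tested on the 9 kept probe sets other than those of Ctse. Here limma called 0 of 9 with and without the run block, with 3 and 1 at an unadjusted p under 0.05, beside 0.0403% of all probe sets called without the block and 0.188% with it. Both Btk KO arrays lay above both Xid arrays for Ctsd and the 3 Ctsb probe sets and below for Ctsh, 4 and 1 of 9, where 14.2% and 12.3% of all probe sets did. The log2 differences were 0.61 ± 0.29 for Ctsd, 0.60 ± 0.29, 0.76 ± 0.31 and 0.27 ± 0.27 for Ctsb and -0.27 ± 0.19 for Ctsh (SE; limma adjusted p = 1.0 each).

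Most markers of macrophages were, like Ctsd and Ctsb, higher in both mutant groups. The list has 30 genes, of which 26 are on the array and 20 were kept. The summed intensity of the 20 was 3682 and 5467 in CBA, 7541 and 11519 in Xid, and 11635 and 15814 in Btk KO. Set against the CBA mean, the sum stood at 1.65 and 2.52 in Xid and at 2.54 and 3.46 in Btk KO. Ctsd stood at 1.71 and 2.36, and at 2.69 and 3.51, close to the ratio of the sum on each mutant array. Ctsb 94831_at was lower, at 1.19 and 1.92, and at 2.17 and 2.43. Bright genes weigh most in the sum, and the single markers varied. Their log2 differences from CBA ran from 0.75 to 2.63 in Btk KO and from -0.07 to 1.6 in Xid. Of the 20, 17 lay above CBA in Btk KO without overlap, where 20% of all probe sets did, and 3 rose without the block and 15 with it, beside 0.174% and 1.42% of all. Those called without the block were Mrc1, a mannose receptor, Spic, an Ets family transcription factor of splenic macrophages, and Vcam1, an adhesion molecule, with log2 differences of 2.63, 2.32 and 2.27 (limma adjusted p = 0.025 each). Each of these 3 calls was lost with most single arrays left out.

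Csf1r, the receptor of the macrophage growth factor, had means of 234 ± 121, 687 ± 192 and 834 ± 118 in CBA, Xid and Btk KO on its brighter probe set. Adgre1, which encodes F4/80, measured 31.2 ± 6.79, 77.2 ± 35.3 and 132 ± 58.7, and Cd68, a lysosomal glycoprotein, 154 ± 48.2, 279 ± 162 and 335 ± 217 (SD, n = 2). Lyz2, the lysozyme of myeloid cells, measured 173 ± 31.3, 221 ± 114 and 310 ± 47.9. Of the markers left out as dim, Marco and Siglec1 read at most 9.9 on any array, while Itgam and Axl reached 45.8 and 36.2 in Btk KO. In such mixed RNA a change in the number of cells of a type and a change of RNA per cell cannot be told apart, and the part of macrophages in the Ctsd and Ctsb differences was not tested.

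The 13 kept B cell markers summed to 29868 and 30035 in CBA, 29403 and 24107 in Xid, and 21999 and 21363 in Btk KO. Relative to the CBA mean, Btk KO stood at 0.734 and 0.713, beside 0.765 and 0.797 for Ctsh. Ctse 104696_at stood at 0.836 and 0.838 in Btk KO. In Xid, where its values are a description only, it stood at 0.0375 and 0.109, with B cell markers at 0.982 and 0.805. The part of B cell number in the Ctsh and Ctse values was not tested.

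**Figure D4:**
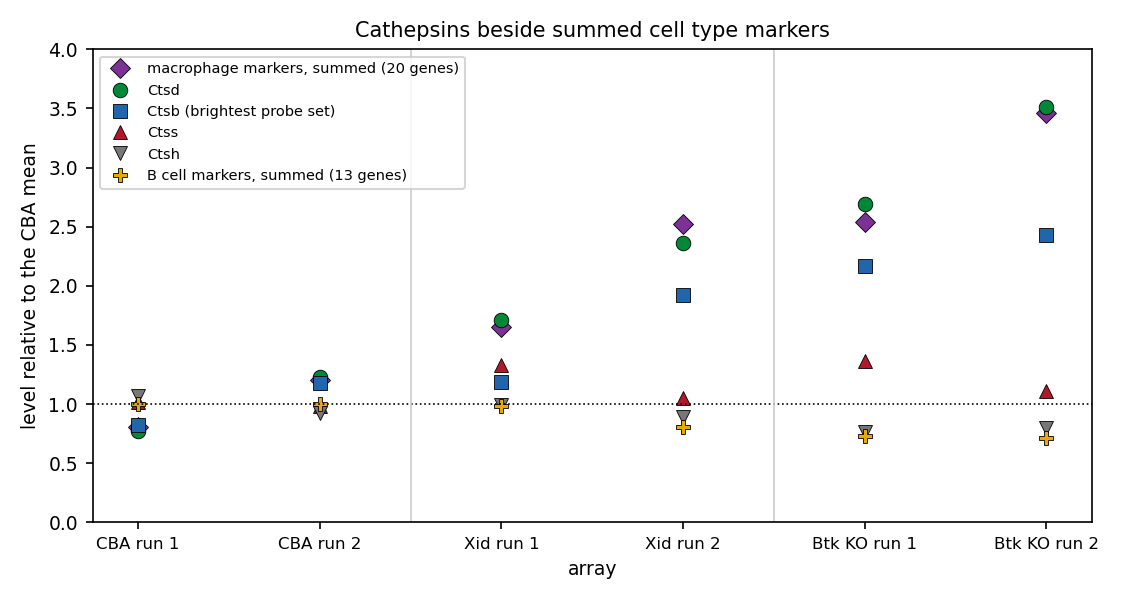
Level on each array relative to the mean of the 2 CBA arrays (dotted line at 1) for Ctsd, Ctsb, Ctss and Ctsh and for the summed intensity of macrophage and B cell markers. Ctsd and the macrophage sum lie close together on all 6 arrays, reaching 3.51 and 3.46 in Btk KO of run 2, while Ctsh and the B cell sum lie below 1 in Btk KO.

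Neutrophil markers summed to 454 and 387 in CBA, 556 and 402 in Xid, and 1107 and 1754 in Btk KO over 9 kept genes. The log2 differences of the 9 genes from CBA in Btk KO ran from -0.03 to 3.0, with a median of 0.46. Of the 9, 5 lay above CBA and 0 below without overlap, where 20% and 16.0% of all probe sets did. Camp and S100a9 rose in Btk KO without the block, from 49.1 ± 13.7 to 298 ± 37.5 and from 23.1 ± 8.98 to 223 ± 41.4 (limma adjusted p = 0.028 and 0.041). Both calls were lost with most single arrays left out. Ctsg, the cathepsin of neutrophil granules, was left out as dim at 0.3 to 5.5. NK and cytotoxic markers summed to 618 and 1183 in CBA, 918 and 1685 in Xid, and 1469 and 3385 in Btk KO. Relative to the CBA mean this sum stood at 1.02 and 1.87 in Xid and at 1.63 and 3.76 in Btk KO. Within each run it rose from CBA over Xid to Btk KO, as the macrophage sum did. Ctsw, a cathepsin of NK and cytotoxic T cells, measured 6.3 and 11.3, 10.7 and 38.3, and 17.5 and 88.0, higher in run 2 in each group (Btk KO against CBA 1.69 ± 0.73, limma adjusted p = 0.56). The other lists differed from CBA in Btk KO by median log2 values of 0.36 for dendritic cell, 0.48 for T cell, 1.26 for erythroid and -0.29 for plasma cell markers. Within run 1, which holds the array with the Gapdh ratio of 10.4, these medians were 0.29, 0.75, 1.67 and -0.73, and within run 2 they were 0.37, 0.29, 0.71 and -0.23. The T cell, erythroid and plasma cell medians were thus farther from 0 in run 1.

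No other peptidase of the lysosome passed the test. Of 9 kept genes of that list limma called 0 with or without the block, 5 and 1 having an unadjusted p under 0.05, with a median of 0.43 in Btk KO, and 5 lay above and 2 below CBA without overlap, where 20% and 16.0% of all probe sets did. Legumain (Lgmn), an asparaginyl endopeptidase, went from 305 ± 32.9 in CBA over 348 ± 7.92 in Xid to 416 ± 61.7 in Btk KO (0.43 ± 0.20, limma adjusted p = 0.59). Dpp7, a dipeptidyl peptidase, measured 99.2 ± 19.7, 141 ± 1.63 and 150 ± 15.4, and Ctsk, the cathepsin of osteoclasts, 19.4 ± 20.2, 41.4 ± 9.55 and 44.0 ± 12.4 (limma adjusted p = 0.50 and 0.61).

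Among inhibitors, 1 of 7 kept genes rose in Btk KO without the block and 2 did with it, none fell, and the median was 0.89. This median is the value of Cst7, a cystatin, at 0.89 ± 1.01 (SE), while the cystatins Cst3 and Cstb differed by 0.05 and 0.27. Of all probe sets 0.174% were called without the block in either direction and 1.42% were called higher with it. Of the 7, 4 lay above CBA and 0 below without overlap, where 20% and 16.0% of all did. Slpi, a secreted inhibitor of serine proteases, rose from 198 ± 24.3 to 577 ± 3.32, with 291 ± 17.7 in Xid (1.52 ± 0.19, limma adjusted p = 0.041). The Slpi call was lost with most single arrays left out. Serpinb6a, an intracellular serpin, had means of 62.5 ± 7.92, 155 ± 8.27 and 256 ± 78.3 in CBA, Xid and Btk KO (1.90 ± 0.26, limma adjusted p = 0.052 without and 0.012 with the block). Serpina3n measured 29.5 ± 19.4, 64.1 ± 4.24 and 103 ± 26.2, and Cstb, cystatin B, an inhibitor of cysteine cathepsins, 371 ± 40, 426 ± 9.83 and 448 ± 9.69 (limma adjusted p = 0.22 and 0.76).

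The lysosomal list of 33 kept genes had a median of 0.28 in Btk KO, with 19 genes above CBA and 1 below without overlap, where 20% and 16.0% of all probe sets were. Without the block 0 rose and 1 fell (limma, 6 at an unadjusted p under 0.05), and with it 1 rose and 1 fell, beside 1.42% and 0.805% of all. The gene that fell was Mcoln2, a cation channel of endosomes and lysosomes, at 226 ± 2.55, 62.6 ± 5.66 and 52.1 ± 7.21 in CBA, Xid and Btk KO (limma adjusted p = 0.028). Its call without the block was lost with most single arrays left out. With the block Asah1, acid ceramidase, rose from 55.0 ± 2.83 to 120 ± 16.4 (limma adjusted p = 0.048). Acp2, an acid phosphatase, and Hexa, a hexosaminidase subunit, differed by 1.01 ± 0.29 and 0.66 ± 0.20 (limma adjusted p = 0.32 and 0.36). The 12 genes of class II presentation had a median of -0.48, with 0 above CBA and 5 below, where 20% and 16.0% of all probe sets were, and limma called 0 with or without the block, 6 and 1 having an unadjusted p under 0.05. H2-Ab1, a class II chain, had means of 1582 ± 134, 1394 ± 28.4 and 975 ± 31.3 in CBA, Xid and Btk KO (-0.69 ± 0.19, limma adjusted p = 0.29). H2-Ob, Ciita, the master regulator of class II genes, and H2-DMb1 differed by -0.93, -0.97 and -0.64 (limma adjusted p = 0.65, 0.65 and 0.71). These differences lay mostly in run 1, at -1.79, -1.53 and -0.92 against -0.06, -0.40 and -0.36 in run 2, and without the Btk KO array of run 1 they were -0.29, -0.13 and -0.10. H2-Ab1 was at -0.66 without it.

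The probe sets whose log2 values over the 6 arrays were most like those of Ctse 104696_at were sought among 6670 others with 1 symbol. They were Ankrd17, Wbp11, Map7, Fkbp7 and Cd59b, with Pearson's r of 0.987, 0.986, 0.971, 0.959 and 0.957. All were lower in Xid, but by far less: the log2 differences from CBA were -0.42, -0.41, -1.0, -0.35 and -0.92, against -3.80 for Ctse. Those most like 93861_f_at were Prkar1b, Mapk14, Mprip, Rap2b and Nnt, at r of 0.986 to 0.977, and those most like 93860_i_at were Ndufa8, Gosr2, Sema4b, Emid1 and Nudt4, at 0.984 to 0.970. The 3 lists share no gene. The highest of 6670 values of r over 6 arrays are high by selection, and they describe these arrays only.

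Promoter sequence was at hand for 5 of the 8 cathepsins, from RefSeq on GRCm38.p6: Ctsc, Ctsd, Ctsl, Ctss and Ctsz. The letters CACGTG, the core of the element that the lysosomal regulator TFEB binds and the same on both strands, were sought in the 250 bases before each start. Ctsd held 2 matches, whose first bases lie 245 and 98 bases before the start, Ctsl held 1, and the other 3 genes held none, beside 6.02% of 32851 windows of that length with at least 1. The Ctsd window is shown because, with the run as a block, Ctsd was the cathepsin whose Btk KO call was kept with each array left out. Without the block Ctsd was not called (limma adjusted p = 0.11). It is chr7:142387828-142388077, minus strand, with the matches in capitals.
Ctsd: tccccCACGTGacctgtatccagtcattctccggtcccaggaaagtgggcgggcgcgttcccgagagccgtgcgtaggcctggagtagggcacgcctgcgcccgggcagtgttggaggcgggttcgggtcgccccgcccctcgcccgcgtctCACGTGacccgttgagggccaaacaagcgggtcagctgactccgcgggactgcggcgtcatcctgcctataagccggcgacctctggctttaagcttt
A match in these letters shows no binding.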

How the data were processed

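The deposited intensity values are 1 linear number per probe set and array, which the authors had already scaled, since all arrays share a 2% trimmed mean of 100.06. How probes were summarised is not given in the sources used here. Chip lot and hybridisation day, per the file headers, are the other deposited data used. Symbols came from the platform annotation (10833 of 12422 non-control probe sets have 1 symbol, 396 several, 1193 none) and 10817 were found by gene number in the GRCm38.p6 gene table; the other symbols are those of the annotation.

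Intensities were taken to log2 after adding a pseudocount of 6, their 20th percentile rounded. Probe sets with a mean log2 below the 40th percentile were left out, and 7453 remained. All 3 groups entered 1 model (limma 3.58.1, R 4.3.3; eBayes with an intensity trend, two-sided, Benjamini-Hochberg over 7453 probe sets, threshold 0.05), tested on simulated data. Differences are on the log2(intensity + 6) scale, which understates changes of dim probe sets. With 2 arrays a group, the number of arrays limits precision. Lists were counted by each gene's brightest kept probe set. Named genes are the members, up to 4 genes per list with the smallest p, and the 5 probe sets most like each Ctse probe set. Checks of label and cell type are also named (Btk, Cd79a, Ms4a1, Cd3e, Csf1r, Adgre1, Cd68, Lyz2, S100a8). Of the marker lists only genes called without the block are given from those 4. Marco, Siglec1, Itgam, Axl, Ctsg, Cst7 and Cst3 lie outside the rule and were chosen after their values were seen. Figures used matplotlib 3.10.9.

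Replicate numbers mark a shared run, since the series design says the second 3 chips used new RNA from new mice. Each run has 1 chip lot. In run 1 the Btk KO array had a hybridisation day of its own, which the block does not adjust for. Deviations from the group mean correlated between groups within a run at 0.31, 0.37 and 0.44. The run as a block is therefore reported where it changes a call. The members and lists were chosen with earlier results of these data known. Alternatives were the block, 2 other scalings, 2 pseudocounts, 2 filters, no trend, only the groups compared, and each array left out; the block with each array left out was added after seeing the data.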

Additional observations from a re-analysis of the deposited data

How the results depend on the processing

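The run as a replicate block raised the limma calls in Btk KO against CBA from 13 to 166, and those among cathepsin probe sets from 0 to 3. Btk KO against Xid went from 3 calls to 14. In Btk KO against CBA the count was 8 under quantile normalization, median centring or no filter, 29 under the stricter filter, and 0 without an intensity trend or with only the groups compared, where 656 and 567 had an unadjusted p under 0.05. With each array left out it lay between 0 and 145, the highest without Btk KO of run 2, and with the block it was 22 and 59 without CBA of run 1 and 2, 81 and 82 without Xid, and 91 and 405 without Btk KO. Cathepsin calls lay between 1 and 2 with the block and an array left out, and stayed at 0 in every alternative without the block, with 3 to 5 at an unadjusted p under 0.05. Btk KO against Xid gave 8 calls with a pseudocount of 24 and 0 with only the groups compared (212 at an unadjusted p under 0.05), and 0 to 29 with each array left out. With the block it gave 10 and 17 without CBA of run 1 and 2, 0 and 1 without Xid, and 12 and 143 without Btk KO. No other cathepsin call changed with the block than those of Ctsd and Ctsb. Median centring moved the median of all probe sets in Btk KO against CBA from 0.01 to -0.10. Of 753 single log2 differences recomputed, 27 had another sign than the reported value, and no tested one of these passed the threshold. The dimmest kept Ctsb probe set was not measured under the stricter filter. With 2 arrays a group, differences of the size seen for Ctss, Ctsz and Ctsh could not be told from the spread.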
